A study of Mus musculus with 6 samples.

Results

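The genes described here encode the protein subunits of the cytosolic ribosome, measured by RNA sequencing in mouse T cells with and without conditional deletion of Stim1. They were chosen by symbol alone: the large-subunit symbols begin with Rpl and the small-subunit symbols with Rps, and pseudogenes and ribosomal protein kinases drop out. Of 23393 named rows in the table, 80 had such a symbol, and the 77 whose normalised counts averaged at least 10 over the 6 libraries are the members, 46 of the large and 31 of the small subunit. Just inside this threshold lay Rpl39l, with a mean of 33.6. Just outside it lay Rpl3l, with a mean of 0.161, and Rpl10l and Rpl26 were listed at 0 in all 6 libraries.

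The cells were naive CD4 T cells of C57BL/6 mice, grown for 2 days into pathogenic Th17 cells, the interleukin-17-secreting helper T cells linked to autoimmune inflammation. They received IL-1b, IL-6 and IL-23 on plates coated with anti-CD3 and anti-CD28. The Stim1KO Stat3C group (Stim1fl/fl Stat3CSTOPfl/fl CD4-Cre) and the Stat3C group (Stat3CSTOPfl/fl CD4-Cre) had 3 libraries each, and the series asked how their transcriptomes differ. Both groups carried the floxed-stop Stat3C allele, a constantly active form of the transcription factor STAT3, and both carried Cre driven from the Cd4 promoter, which acts in T cells from an early stage of their development in the thymus. So the comparison is that of conditional deletion of Stim1 in cells with active STAT3, and no library from cells without Stat3C was part of it. STIM1 is the calcium sensor of the endoplasmic reticulum that opens calcium channels of the plasma membrane when the store empties.

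The cytosolic ribosome translates nearly all cellular proteins. Its small subunit binds and decodes the mRNA, and its large subunit joins amino acids and holds the tunnel through which the new protein leaves. A T cell that has been activated enlarges and makes many ribosomes before it divides. Most mRNAs of ribosomal proteins begin with a C followed by a run of pyrimidines, the 5′ terminal oligopyrimidine (TOP) tract, through which the kinase mTORC1 and the protein LARP1 set how well they are translated and how stable they are. In mammals these genes are present as 1 active copy beside many processed pseudogenes.

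The start of the transcript is shown first because this tract is known from most mRNAs of the family. At the annotated starts used here it was found in only 13 of 57 members (22.8%). Whether these annotated starts are the ones used in these cells was not tested. The windows below hold 60 bases each, 50 before and 10 from the RefSeq transcript start (GRCm38.p6), written 5′ to 3′ on the strand of the gene. Capitals mark a C-led pyrimidine tract of at least 5 bases within 5 bases of the start, or the motif CCGGAAG. The first 3 are those members past the test described later for which the RefSeq table held a promoter, and the fourth is Rps6. The last 3 are the members with the highest log2 fold changes.
Rplp2: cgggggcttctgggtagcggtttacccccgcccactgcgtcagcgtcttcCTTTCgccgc
Rps21: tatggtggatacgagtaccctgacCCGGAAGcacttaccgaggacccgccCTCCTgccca
Rpl18: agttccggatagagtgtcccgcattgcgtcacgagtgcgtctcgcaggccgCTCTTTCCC
Rps6: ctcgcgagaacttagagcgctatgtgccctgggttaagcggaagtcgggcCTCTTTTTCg
Rps15a: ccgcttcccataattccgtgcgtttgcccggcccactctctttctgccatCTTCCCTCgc
Rpl23: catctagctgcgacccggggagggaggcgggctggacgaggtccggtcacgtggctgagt
Rpl24: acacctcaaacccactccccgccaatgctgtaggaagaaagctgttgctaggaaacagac

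These windows are chr7:141447601-141447660 for Rplp2 (plus strand), chr2:180257329-180257388 for the first of the starts of Rps21 (plus), and chr7:45718021-45718080 for Rpl18 (plus). They are chr4:86857358-86857417 for Rps6 (minus), chr7:118116138-118116197 for Rps15a (minus), chr11:97782430-97782489 for Rpl23 (minus) and chr16:55966225-55966284 for Rpl24 (plus). In Rplp2, Rps6, Rps15a and the start of Rps21 shown here the tract began exactly at the annotated start, while the other annotated start of Rps21 held none. In Rpl18 it began 1 base after the start. The windows of Rpl23 and Rpl24 held no such tract near the annotated start.

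The RefSeq table held 57 of the 77 members. A gene with several annotated starts was counted where any of them matched. A C at the start followed by at least 4 pyrimidines was present in 13 of the 57 (22.8%), against 3.01% of all 27025 genes in the table and 3.05% of the 8938 tested genes in it. Allowing the tract to begin within 5 bases on either side, a measure chosen after the sequences were seen, gave 28 members (49.1%), against 21.2% of all genes and 23.8% of tested genes. In promoters running from 250 bases before the start to 50 bases after it, and searching both strands, CCGGAAG, a core recognised by ETS-family factors, was found in 24 members (42.1%), against 9.93% of all genes and 20.9% of tested genes. The E-box CACGTG, the core bound by MYC with MAX, was found in 6 members (10.5%), against 8.09% of all genes and 12% of tested genes. The YY1-type motif AAGATGGC was found in 8.77% of members, 3.19% of all genes and 5.56% of tested genes, and the GC box GGGCGG in 61.4%, 38.2% and 69.5%. CCGGAAG and AAGATGGC can overlap at their shared AAG, each motif was counted on its own, and a match describes the sequence only.

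Each library held 16009755 to 51347367 reads on named genes, recovered from the deposited values, which are read counts divided by the authors' size factor. Depth did not overlap between groups: the largest Stim1KO Stat3C library had 22519269 reads and the smallest Stat3C library 23092044. Stim1 checked the labels, with 811, 794 and 687 normalised counts in Stim1KO Stat3C against 1999, 1969 and 1931 in Stat3C (log2 fold change -1.37, SE 0.08, limma adjusted p = 0.000287). Its mRNA was thus lower but not absent in Stim1KO Stat3C, and STIM1 protein was not measured here. Of 11947 genes tested with limma, 1030 (8.62%) were higher and 593 (4.96%) lower in Stim1KO Stat3C at an adjusted p below 0.05. Th17 markers were present in every library at different levels: Il17a had 586, 409 and 442 in Stim1KO Stat3C against 2593, 3413 and 3919 in Stat3C, and Il17f had 3106, 3532 and 2874 in Stim1KO Stat3C against 9805, 10683 and 12993 in Stat3C. Among the members, Stat3C replicate 2 stood apart from the other libraries of its group, being the lowest of the 3 in 70 of 77. Xist was at 11549 in replicate 3 of Stim1KO Stat3C and at 8362 in replicate 3 of Stat3C, and at most 3.53 in the other 4 libraries, so cells of more than 1 mouse were present in each group. The labels do not say whether the other replicates are separate mice, so the spread behind the p-values is that of these libraries and may be partly technical.

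Summed over the family, ribosomal protein mRNAs took a slightly smaller share of the reads in Stim1KO Stat3C than in Stat3C, while few genes passed the test on their own. The 77 members took 8.97% (95% Wilson interval 8.96 to 8.99), 9.14% (9.12 to 9.15) and 9.55% (9.54 to 9.56) of the reads in the Stim1KO Stat3C libraries. In the Stat3C libraries they took 9.999% (9.991 to 10.007), 9.61% (9.60 to 9.61) and 10.017% (10.005 to 10.029). The intervals cover counting error only, and the ranges of the groups did not overlap, although Stim1KO Stat3C replicate 3 and Stat3C replicate 2 lay close together. The means were 9.22% ± 0.296 in Stim1KO Stat3C and 9.87% ± 0.233 in Stat3C (SD, n = 3 each). The summed normalised counts of the members were lower by 6.63% in Stim1KO Stat3C (a difference of -6.63%), and by amounts between -8.80% and -4.87% with any 1 library left out.

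Gene by gene, 74 of the 77 members had a log2 fold change below 0, against 50.2% of all genes tested. For 67 of them it lay between -0.2 and 0, for 7 it was -0.2 or lower, and for 3 it was above 0. The median over the members was -0.10, against -0.0011 over all genes tested. In RNA from a population of cells, fewer cells of a type and less RNA per cell cannot be told apart, and a share of reads says nothing of the total amount of RNA in a cell.

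Few members passed the test on their own. Of the 77, 4 were lower at an adjusted p below 0.05 and none was higher, against 4.96% and 8.62% of all genes tested. An unadjusted p below 0.05 with a lower value was found for 21 members, against 14% of all genes tested, and for 0 members with a higher value. In 27 members all 3 Stim1KO Stat3C values lay below all 3 Stat3C values, against 16.4% of all genes tested. The share that passed is close to the background, so this count is no result about the members. The members were also measured with less scatter than most genes. Their median coefficient of variation was 5.23% in Stim1KO Stat3C and 3.30% in Stat3C, against 8.32% and 7.88% for all genes tested, and the median SE of the log2 fold change was 0.06, against 0.10.

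**Figure D1:**
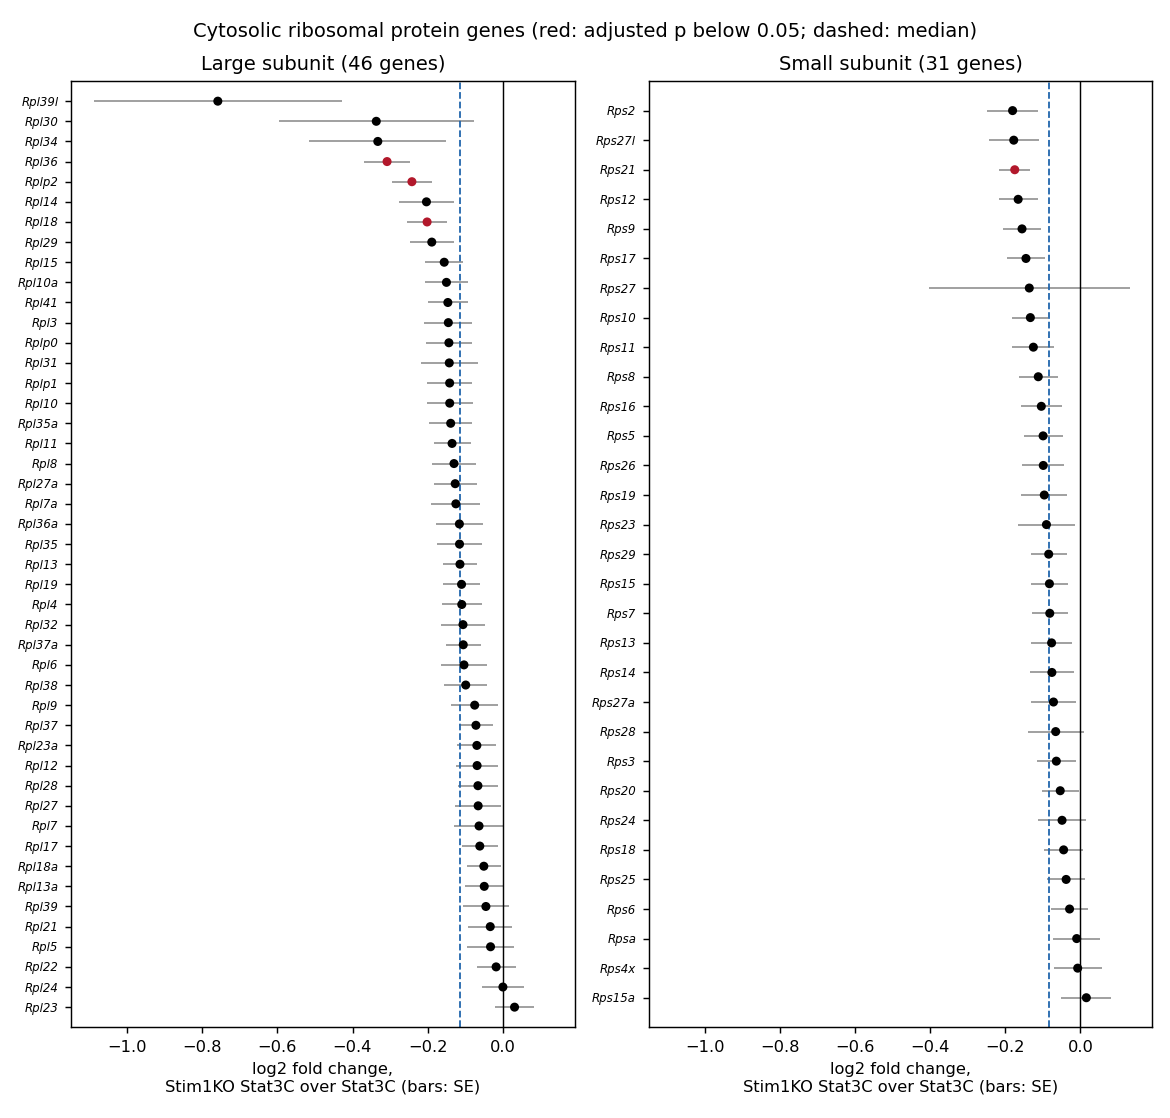
Log2 fold change (Stim1KO Stat3C over Stat3C, horizontal axis) of each of the 77 members, large subunit on the left and small subunit on the right, with bars for the SE from limma, red points for an adjusted p below 0.05 and a dashed line at the median of each subunit. The medians are -0.11 and -0.08, 4 points are red, and the widest bars belong to Rpl39l, Rpl30, Rpl34 and Rps27, the members with the lowest counts.

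The number of members past the threshold rested on single libraries and on the model. Beside each count stands the share of all genes tested that were called lower in the same way. With 1 library left out, limma called 11 members lower without Stat3C replicate 2 (9.98%), 1 without Stim1KO Stat3C replicate 1 (1.66%), 1 without its replicate 3 (3%) and 0 without its replicate 2 (1.79%). It called 0 when Stat3C replicate 1 (1.17%) or Stat3C replicate 3 (1.29%) was left out. Without a variance trend limma called 0 (1.87%), with library quality weights 36 (15.1%), with libraries scaled to equal totals 7 (5.5%), and with equal totals of all genes but the members 8 (5.94%). On the recovered reads, DESeq2 called 17 (8.51%). With Stim1KO Stat3C replicate 3 left out, edgeR called 1 of the members (2.37%). With a term for Xist, which sets replicate 3 of each group apart, limma called 4 (5.65%), the same 4 genes as without it. The medians stayed below 0 throughout: the large-subunit median ran from -0.15 to -0.09 and the small-subunit median from -0.13 to -0.05 with 1 library left out.

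Between libraries, the members moved up and down together. Stim1KO Stat3C replicate 1 held the lowest of the 6 values in 54 members and replicate 2 in 22, and Stat3C replicate 2 held it in 1. The highest value was in Stat3C replicate 3 for 39 members, in Stat3C replicate 1 for 23, in Stim1KO Stat3C replicate 3 for 14 and in Stat3C replicate 2 for 1. Stim1KO Stat3C replicate 3 thus sat closest to Stat3C. It was below every Stat3C library in 31 members, while replicate 1 was so in 71 and replicate 2 in 67. These counts cover the members only, and no share over all genes tested stands beside them. Over all genes tested, the median log2 deviation from the 6-library mean ran from -0.0091 to 0.0059 per library. Over the large-subunit members it ran from -0.12 to 0.09, and over the small-subunit members from -0.10 to 0.07. Which property of Stim1KO Stat3C replicate 3 goes with its higher level was not tested. It was the library of its group with the most reads and with Xist.

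The large subunit had a slightly lower median log2 fold change than the small subunit. The median was -0.11 over its 46 members, 44 of them negative, and -0.08 over the 31 small-subunit members, 30 of them negative. Of these, 3 large-subunit members and 1 small-subunit member were lower by the test, against 4.96% of all genes tested. The groups did not overlap in 17 large-subunit and 10 small-subunit members, against 16.4% of all genes tested. The difference between the medians was -0.03, and -0.04 to -0.02 with 1 library left out, and no test was made of it. The summed counts differed by -7.18% for the large and -5.80% for the small subunit.

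The ratio of the large-subunit sum to the small-subunit sum separated the groups with little scatter. It was 1.508, 1.512 and 1.504 in Stim1KO Stat3C and 1.534, 1.528 and 1.528 in Stat3C, with means of 1.51 ± 0.0041 and 1.53 ± 0.0036 (SD, n = 3 each). The lowest Stat3C ratio was above the highest Stim1KO Stat3C ratio. With the 4 members past the threshold taken out of the sums, the ratio was 1.47, 1.47 and 1.47 in Stim1KO Stat3C and 1.49, 1.49 and 1.48 in Stat3C. The shift is 0.985-fold, and an exact permutation test of 3 libraries against 3 cannot go below 0.10, so no p is given.

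**Figure D2:**
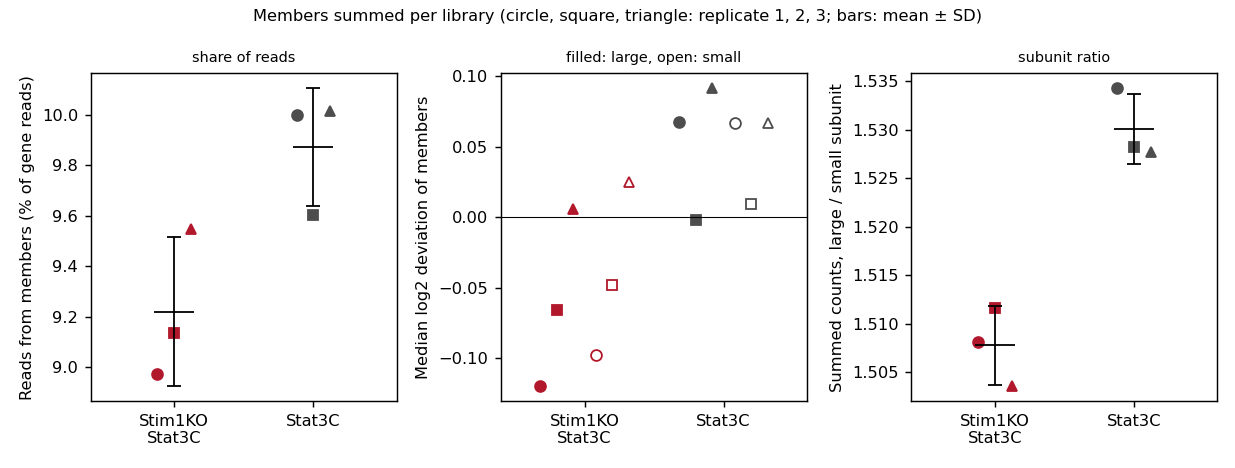
Members summed per library in Stim1KO Stat3C (red) and Stat3C (grey): share of gene reads in percent (left), median log2 deviation of the members from their own 6-library mean with large subunit filled and small subunit open (middle), and summed large-subunit counts over summed small-subunit counts (right), with bars for mean ± SD and axes that do not start at 0. The share runs from 8.97% to 9.55% in Stim1KO Stat3C and from 9.61% to 10.017% in Stat3C, and the subunit ratio from 1.504 to 1.512 in Stim1KO Stat3C and from 1.528 to 1.534 in Stat3C.

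The member with the smallest p was Rpl36, a structural protein of the large subunit (chromosome 17, 56613416 to 56614243, plus strand, GRCm38). It had 9993, 11128 and 11439 normalised counts in Stim1KO Stat3C against 13693, 12994 and 13565 in Stat3C. All Stim1KO Stat3C libraries were below all Stat3C libraries, and Rpl36 fell by 19.1% in Stim1KO Stat3C (log2 fold change -0.31, SE 0.06, adjusted p = 0.0159). It passed in 18 of 22 alternative settings, with adjusted p from 2.7e-05 to 0.0728, and missed the threshold without the variance trend and without Stim1KO Stat3C replicate 2, Stat3C replicate 1 or Stat3C replicate 3. Of the 50-base stretches of its transcript 81.1% also occur in other annotated transcripts, mostly pseudogenes, so its reads may be split between copies.

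Rplp2 (chromosome 7, 141447370 to 141451585, plus strand) encodes an acidic protein of the stalk that recruits elongation factors to the large subunit. It had 12014, 13243 and 13056 normalised counts in Stim1KO Stat3C against 15435, 14654 and 15184 in Stat3C. The groups did not overlap, and Rplp2 fell by 15.4% (log2 fold change -0.24, SE 0.05, adjusted p = 0.0243). It passed in 15 of 22 settings (adjusted p 0.00021 to 0.108), and of its 50-base stretches 65.1% occur elsewhere.

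The other stalk genes had values in the same direction without passing the test. Rplp0, which anchors the stalk to the ribosome, had 93666, 93959 and 100806 in Stim1KO Stat3C and 108940, 100012 and 109671 in Stat3C (log2 fold change -0.14, SE 0.06, adjusted p = 0.152). Rplp1, the partner of Rplp2 in the stalk dimer, had 43076, 44497 and 46069 in Stim1KO Stat3C and 50667, 45694 and 51157 in Stat3C (-0.14, SE 0.06, adjusted p = 0.155). In both genes the groups overlapped through Stat3C replicate 2. Of the 3 stalk genes 1 was lower, against 4.96% of all genes tested, and their median was -0.14.

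Rps21, a small-subunit protein (chromosome 2, 180257377 to 180258445, plus strand), was the most evenly measured of the 4. Its values were 9033, 9160 and 9089 in Stim1KO Stat3C against 10290, 10251 and 10254 in Stat3C, which leaves a wide gap between groups of little scatter. Rps21 fell by 11.4% (log2 fold change -0.17, SE 0.04, adjusted p = 0.0306), passed in 15 of 22 settings (adjusted p 0.00024 to 0.131), and shares only 26.4% of its 50-base stretches with other transcripts.

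Rpl18, a large-subunit protein (chromosome 7, 45715457 to 45720836, plus strand), had 19763, 21091 and 21643 in Stim1KO Stat3C against 24306, 23132 and 24385 in Stat3C. It fell by 13.0% (log2 fold change -0.20, SE 0.05, adjusted p = 0.0421) and lay near the threshold. It passed in 12 of 22 settings (adjusted p 0.0015 to 0.160) and was lost, among others, without a filter on low counts and with the libraries centred on their medians. It shares 74.3% of its 50-base stretches with other transcripts.

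**Figure D3:**
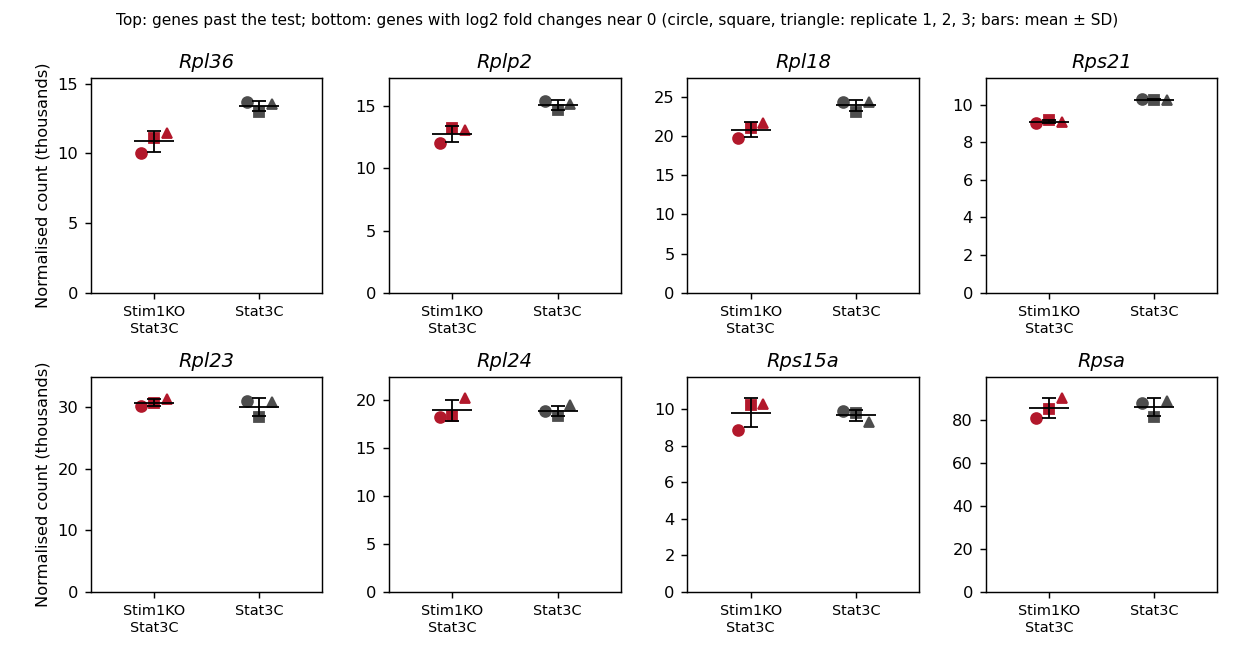
Normalised counts, divided by 1000, of 8 members in Stim1KO Stat3C (red) and Stat3C (grey), 1 point per library with bars for mean ± SD and axes from 0. In Rpl36, Rplp2, Rpl18 and Rps21 (top) all Stim1KO Stat3C points lie below all Stat3C points, and in Rpl23, Rpl24, Rps15a and Rpsa (bottom) the groups overlap.

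Among the other large-subunit members, Rpl29, Rpl15 and Rpl14 came next without passing. Rpl29 had 17263, 18542 and 19331 in Stim1KO Stat3C and 21390, 19901 and 21527 in Stat3C (log2 fold change -0.19, SE 0.06, adjusted p = 0.0717). Rpl15, one of the large-subunit genes mutated in human Diamond-Blackfan anaemia, had 25547, 27024 and 25885 in Stim1KO Stat3C and 29350, 27888 and 30181 in Stat3C (-0.16, SE 0.05, adjusted p = 0.0825). Groups did not overlap in either gene, and both passed with the libraries scaled to equal totals without the members. Rpl14 varied more in Stim1KO Stat3C, at 19075, 21616 and 23171 there and 24842, 23480 and 24983 in Stat3C (-0.20, SE 0.07, adjusted p = 0.11). The rule for named genes does not cover these 3, and they were picked with their values in view.

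The partners of the 5S RNA, which hold back the p53 regulator MDM2 when ribosome assembly is disturbed, differed from each other in value but neither passed. Rpl11 had 22509, 22443 and 24246 in Stim1KO Stat3C and 25435, 25022 and 25470 in Stat3C, with no overlap (log2 fold change -0.13, SE 0.05, adjusted p = 0.111). Rpl5 had 42793, 45329 and 47555 in Stim1KO Stat3C and 47969, 43277 and 47520 in Stat3C, with overlap (-0.03, SE 0.06, adjusted p = 0.759). The difference between the 2 genes was not tested.

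Of the proteins that line the exit tunnel or ring its mouth, 7 of 8 were measured above the minimum, none passed, and their median log2 fold change was -0.11. Rpl4, whose loop narrows the tunnel, had 64037, 63977 and 67642 in Stim1KO Stat3C and 71814, 67259 and 71963 in Stat3C (-0.11, SE 0.05, adjusted p = 0.209). Rpl19 had 38296, 37415 and 40033 in Stim1KO Stat3C and 41810, 40430 and 42612 in Stat3C (-0.11, SE 0.05, adjusted p = 0.179), with no overlap. Rpl39, a small protein in the tunnel wall, was nearer to even, with 11438, 12056 and 13105 in Stim1KO Stat3C and 12972, 12598 and 12134 in Stat3C (-0.04, SE 0.06, adjusted p = 0.652). Rpl3, which reaches towards the peptidyl transferase centre, had 47345, 52926 and 53245 in Stim1KO Stat3C and 58110, 53794 and 57666 in Stat3C (-0.14, SE 0.06, adjusted p = 0.165).

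Rpl13a, Rpl22 and Rpl38, large-subunit proteins with known extra roles, did not pass either. Rpl13a, a part of the interferon-induced complex that silences inflammatory mRNAs in human monocytes, had 46323, 42529 and 44889 in Stim1KO Stat3C and 46895, 45089 and 46315 in Stat3C (-0.05, SE 0.05, adjusted p = 0.551). Rpl22, which mouse T cells of the alpha-beta lineage need in the thymus, had 10545, 10101 and 11012 in Stim1KO Stat3C and 10691, 10320 and 11023 in Stat3C (-0.02, SE 0.05, adjusted p = 0.845). Both genes had overlapping groups. Rpl38, needed for translation of Hox mRNAs in mouse embryos, had 8938, 9411 and 9999 in Stim1KO Stat3C and 10060, 9734 and 10540 in Stat3C (-0.10, SE 0.06, adjusted p = 0.283).

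In the small subunit the lowest log2 fold changes besides that of Rps21 belonged to Rps2, Rps27l, Rps12 and Rps9, and none of these passed. Rps2, at the channel where mRNA enters, had 77764, 77762 and 82583 in Stim1KO Stat3C and 91563, 82660 and 96037 in Stat3C (-0.18, SE 0.07, adjusted p = 0.115). Its highest Stim1KO Stat3C value and lowest Stat3C value nearly met. Rps12 had 33312, 33570 and 35998 in Stim1KO Stat3C and 39283, 37372 and 38699 in Stat3C (-0.17, SE 0.05, adjusted p = 0.0712). Rps9 had 37622, 37259 and 39577 in Stim1KO Stat3C and 42984, 40848 and 43648 in Stat3C (-0.16, SE 0.05, adjusted p = 0.0833). In Rps12 and Rps9 the groups were apart, and both genes passed when libraries were scaled to equal totals.

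The head of the small subunit, which swivels during translocation, had 14 measured proteins, none of which passed, and the median of their log2 fold changes was -0.08. Rps3, at the mRNA entry site, had 36551, 36390 and 39068 in Stim1KO Stat3C and 39069, 37819 and 40172 in Stat3C (-0.06, SE 0.05, adjusted p = 0.435). Rps19, the gene most often mutated in human Diamond-Blackfan anaemia, had 18888, 20436 and 21859 in Stim1KO Stat3C and 22265, 21204 and 21824 in Stat3C (-0.10, SE 0.06, adjusted p = 0.323). In both the highest Stim1KO Stat3C value reached into the Stat3C range. Rps27a, made as a fusion with ubiquitin, had 22739, 23767 and 25951 in Stim1KO Stat3C and 25793, 24423 and 25836 in Stat3C (-0.07, SE 0.06, adjusted p = 0.455). Rps25, which certain viral RNAs need for internal initiation, had 19970, 20311 and 21508 in Stim1KO Stat3C and 21025, 20577 and 21816 in Stat3C (-0.04, SE 0.05, adjusted p = 0.645). Over the 14 measured genes of the Diamond-Blackfan list, which spans both subunits, none passed and the median was -0.10.

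At the other end, a few members were level between the groups. Rps6, the substrate of the S6 kinases downstream of mTORC1, had 36766, 37863 and 39728 in Stim1KO Stat3C and 39029, 38163 and 39411 in Stat3C (-0.03, SE 0.05, adjusted p = 0.726). Rpsa, also known as the laminin receptor precursor, had 81034, 84822 and 90196 in Stim1KO Stat3C and 87901, 81209 and 88626 in Stat3C (-0.0097, SE 0.06, adjusted p = 0.929). The groups overlapped fully in both. Rpl23, at the face that joins the subunits, had 30141, 30621 and 31334 in Stim1KO Stat3C and 30991, 28384 and 30778 in Stat3C (0.03, SE 0.05, adjusted p = 0.714). Rps15a had 8866, 10230 and 10251 in Stim1KO Stat3C and 9899, 9769 and 9300 in Stat3C (0.02, SE 0.07, adjusted p = 0.891). Rpl24, which forms a bridge to the small subunit, had 18204, 18308 and 20195 in Stim1KO Stat3C and 18848, 18351 and 19432 in Stat3C (0.00068, SE 0.06, adjusted p = 0.996). Rpl24, Rpl23 and Rps15a are the members with a log2 fold change above 0, and each changes sign under some settings, among them scaling by TMM for Rpl24, median centring for Rps15a and library quality weights for Rpl23.

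None of the 4 X-linked members passed, and the median of their log2 fold changes was -0.08. Rpl10, needed for the last steps of large-subunit maturation, had 31154, 32994 and 35624 in Stim1KO Stat3C and 36479, 35564 and 37844 in Stat3C (-0.14, SE 0.06, adjusted p = 0.159). Rps4x had 41466, 44822 and 47919 in Stim1KO Stat3C and 45543, 43143 and 46000 in Stat3C (-0.0071, SE 0.06, adjusted p = 0.951). In both genes replicate 3 was the highest of its group. In Rpl39, whose values are given above, replicate 3 was the highest in Stim1KO Stat3C but the lowest in Stat3C. Over all members Stim1KO Stat3C replicate 3 was the highest of its group in 67 of 77, with no share over all genes beside it. Rpl36a had 10137, 10972 and 11616 in Stim1KO Stat3C and 11956, 11295 and 12160 in Stat3C (-0.12, SE 0.06, adjusted p = 0.245).

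A handful of members had counts far below the rest, and the table itself limits what can be read from them. Rpl30 had 45.2, 38.7 and 44.8 normalised counts in Stim1KO Stat3C and 48.5, 45.3 and 72.7 in Stat3C (log2 fold change -0.34, SE 0.26, adjusted p = 0.411). Rpl34 had 101, 97.7 and 109 in Stim1KO Stat3C and 110, 122 and 162 in Stat3C (-0.33, SE 0.18, adjusted p = 0.253). Rps27 had 57.5, 38.7 and 68.7 in Stim1KO Stat3C and 60.2, 66.0 and 51.4 in Stat3C (-0.14, SE 0.27, adjusted p = 0.761). All members except Rpl30, Rpl34, Rps27 and Rpl39l averaged above 1000 normalised counts. Yet ribosomes need the proteins of Rpl30, Rpl34 and Rpl26, the last of which was listed at 0. For Rps27, the members also hold its paralogue Rps27l, with a mean of 4344. Of the 50-base stretches of the annotated Rps27 transcript, 98.6% occur elsewhere, most of them in Rps27rt. The share was 71.3% in Rpl26, 50.6% in Rpl34 and 47.8% in Rpl30. The median over members is 53.6%, so such sharing is common in the family. Whether it lowered these counts was not tested, and they are no measure of how much mRNA was present.

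Leaving the 4 low members out did not move the account. The 73 members above 1000 had a median log2 fold change of -0.10, and 70 of them were negative, against 50.2% of all genes tested. In 24 of them all Stim1KO Stat3C values lay below all Stat3C values, against 16.4% of all genes tested. Sharing of sequence did not separate the members either. The 45 with at least 50% shared stretches had a median of -0.11 with 3 lower, and the 32 with less had -0.10 with 1 lower. The 29 members with a small nucleolar RNA inside the gene had a median of -0.10 with 1 lower, and the other 48 had -0.11 with 3 lower. Beside these counts, 4.96% of all genes tested were called lower. The members lie on 19 chromosomes, with 14 of them on chromosome 7.

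The 8 listed paralogues of ribosomal proteins include some that are restricted to certain tissues and some that can be induced. Of the 8, 6 could be tested, 1 was lower and none was higher, against 4.96% and 8.62% of all genes tested. Rpl39l, the paralogue of Rpl39 known from mouse testis, had 26.0, 19.3 and 27.9 in Stim1KO Stat3C and 58.9, 34.8 and 34.9 in Stat3C, with no overlap but few counts (-0.76, SE 0.33, adjusted p = 0.161). It was the lowest log2 fold change of all members, with the widest error. Rps27l, a paralogue of Rps27 that p53 can induce, had 3787, 4075 and 4377 in Stim1KO Stat3C and 4641, 4388 and 4796 in Stat3C (-0.18, SE 0.07, adjusted p = 0.116). Outside the symbol rule, Rpl36al fell in Stim1KO Stat3C, with 4696, 5238 and 5277 there and 5913, 5893 and 6220 in Stat3C (-0.25, SE 0.06, adjusted p = 0.0329). It passed in 15 of 22 alternative settings, with adjusted p from 0.0015 to 0.128. Rpl22l1, the paralogue of Rpl22, had 856, 1100 and 936 in Stim1KO Stat3C and 1231, 1126 and 1279 in Stat3C, with no overlap (-0.34, SE 0.10, adjusted p = 0.0643). Rpl7l1 (-0.07, adjusted p = 0.576) and Rps4l, listed as Rps4y2 (-0.33, SE 0.47, adjusted p = 0.661), had overlapping groups. The log2 fold change of Rps4y2 was 0.25 without Stat3C replicate 2, and the gene is annotated as a transcribed processed pseudogene.

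Levels of different genes can be set side by side only per length of transcript, here as normalised counts per kilobase of the annotated mRNA. Rpl41, the smallest of the ribosomal proteins, was highest, with a mean level of 100294 per kilobase in Stim1KO Stat3C and 110920 in Stat3C. Rplp1 followed, with 89273 and 98542, then Rps2 with 79529 and 90267, in each case Stim1KO Stat3C before Stat3C. Among members above 1000 normalised counts, the large-subunit median (43 genes) was 30335 per kilobase in Stim1KO Stat3C and 35032 in Stat3C. The small-subunit median (30 genes) was 35287 in Stim1KO Stat3C and 36995 in Stat3C. The large-subunit medians fell on different genes, Rplp2 in Stim1KO Stat3C and Rpl36 in Stat3C, so their gap is not the change of the subunit. Over all members, the summed counts differed by -7.18% for the large and -5.80% for the small subunit. Of those 43 genes Rpl37 had the lowest level, with 8348 per kilobase in Stim1KO Stat3C and 8769 in Stat3C. Its annotated transcript has 835 bases, of which 291 are coding, and the level depends on that length. Rps20 had a low level, 6303 in Stim1KO Stat3C and 6542 in Stat3C, but its annotated transcript of 3706 bases is long for the family, so that value depends on the annotation.

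Of genes outside the symbol rule whose proteins complete or attend the ribosome, Fau and Gnb2l1 had log2 fold changes below 0 and Rps3a1 above 0. Fau, which yields small-subunit protein eS30, had 17829, 17353 and 18099 in Stim1KO Stat3C and 18461, 18394 and 18877 in Stat3C (-0.06, SE 0.04, adjusted p = 0.35). Gnb2l1, the scaffold now called Rack1, had 46211, 47886 and 49265 in Stim1KO Stat3C and 51320, 49410 and 51265 in Stat3C (-0.08, SE 0.05, adjusted p = 0.279). Neither passed, and in both the groups did not overlap. Rps3a1, a small-subunit gene whose symbol the rule does not match, went the other way in value, with 42700, 42156 and 44706 in Stim1KO Stat3C and 42144, 38950 and 41186 in Stat3C (0.08, SE 0.05, adjusted p = 0.314). Its groups did not overlap either, with every Stim1KO Stat3C value above every Stat3C value, and it did not pass.

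The annotated start sequence was set against the fold changes as a description. The 13 members with a tract exactly at the start had a median log2 fold change of -0.13 and held 2 of the lower calls, and the 44 without it had -0.10. With a tract within 5 bases of the start the median was -0.13 over 28 members, and without it -0.08 over 29. With CCGGAAG it was -0.12 over 24 members, and without it -0.09 over 33. The GC box had a like gap, at -0.12 over 35 members and -0.08 over 22. For CACGTG the medians were -0.10 over 6 and -0.10 over 51. AAGATGGC went the other way, at -0.05 over 5 members and -0.10 over 52. None of these differences was tested. Rps15a and Rps6, with tracts, sat near 0, while Rplp2 and Rps21, the second of them with a tract at 1 of its annotated starts, were among the 4 that fell.

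Among other genes of translation and its control, no gene of the TOP, mTORC1 and small nucleolar RNA host lists passed. Of 18 translation factors and other genes with TOP mRNAs, none passed and the median was -0.06. Eef1a1, which brings aminoacyl-tRNA to the ribosome, had 174609, 202432 and 200398 in Stim1KO Stat3C and 205476, 189146 and 204483 in Stat3C (-0.06, SE 0.07, adjusted p = 0.648), and Eef2 was at -0.09 (SE 0.06, adjusted p = 0.328). Of 18 genes of the mTORC1 pathway and the LARP family, none passed and the median was -0.04. Larp1 had 13789, 15441 and 15410 in Stim1KO Stat3C and 16234, 15534 and 16319 in Stat3C (-0.11, SE 0.06, adjusted p = 0.244), and Eif4e, the cap-binding protein, was at -0.19 (SE 0.08, adjusted p = 0.127). Of 8 noncoding host genes of small nucleolar RNAs, which also carry TOP tracts, none passed, with Gas5 at -0.04 (SE 0.07, adjusted p = 0.735) and 1500012F01Rik, now Zfas1, at -0.09 (SE 0.13, adjusted p = 0.669).

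Genes for ribosome assembly had a lower median log2 fold change than the ribosomal proteins, a difference that was not tested. Of 20 genes for ribosome assembly and RNA polymerase I, 4 were lower and none higher, against 4.96% and 8.62% of all genes tested. All 20 had a negative log2 fold change, against 50.2% of all genes tested, and the median was -0.21. Rrs1, an assembly factor that brings in the 5S particle, had 2235, 2081 and 2220 in Stim1KO Stat3C and 3087, 2585 and 2861 in Stat3C (-0.38, SE 0.07, adjusted p = 0.0149). Fbl, the methyltransferase fibrillarin that modifies ribosomal RNA, had 7392, 7780 and 7560 in Stim1KO Stat3C and 8966, 8367 and 9134 in Stat3C (-0.22, SE 0.05, adjusted p = 0.0303). Groups did not overlap in either gene. Pno1 (-0.36, SE 0.09, adjusted p = 0.0394), a small-subunit assembly factor, and Bop1 (-0.22, SE 0.06, adjusted p = 0.042), of the complex that processes large-subunit RNA, also fell. Of 7 dedicated chaperones of ribosomal proteins 1 was lower, Heatr3, which escorts Rpl5, with 2507, 2636 and 2643 in Stim1KO Stat3C and 3383, 2843 and 3420 in Stat3C (-0.30, SE 0.08, adjusted p = 0.039).

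MYC drives transcription of ribosomal protein and assembly genes, and its own mRNA was level. Myc had 8554, 8502 and 8930 in Stim1KO Stat3C and 9234, 7791 and 9221 in Stat3C (-0.01, SE 0.07, adjusted p = 0.936). Its partner Max fell, with 2303, 2141 and 2250 in Stim1KO Stat3C and 2622, 2573 and 2637 in Stat3C (-0.23, SE 0.05, adjusted p = 0.0281). Of the proteins that compete with MYC for MAX, Mxd1 rose most, to 3389, 3534 and 3521 in Stim1KO Stat3C, against 876, 1735 and 919 in Stat3C (1.64, SE 0.23, adjusted p = 0.00434). Mxd4 (0.57, SE 0.15, adjusted p = 0.0413) and Mnt (0.29, SE 0.07, adjusted p = 0.0267) rose too. Of the 7 measured genes of this list 3 were higher and 1 lower, against 8.62% and 4.96% of all genes tested. In value, 3 of the 7 were negative and 4 positive. The lowest log2 fold change, -0.32, belonged to a gene not named here that did not pass. No relation to the ribosomal protein values was tested.

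The ribosome of mitochondria, made from a separate set of nuclear genes, had lower log2 fold changes than the cytosolic one. Of its 76 measured proteins 19 were lower and 1, Mrpl33, higher, 74 had a negative log2 fold change, and the median was -0.20, against 4 of 77 lower and a median of -0.10 in the cytosolic ribosome. Of all genes tested, 4.96% were lower, 8.62% higher and 50.2% negative. The difference between the families was not tested.

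**Figure D4:**
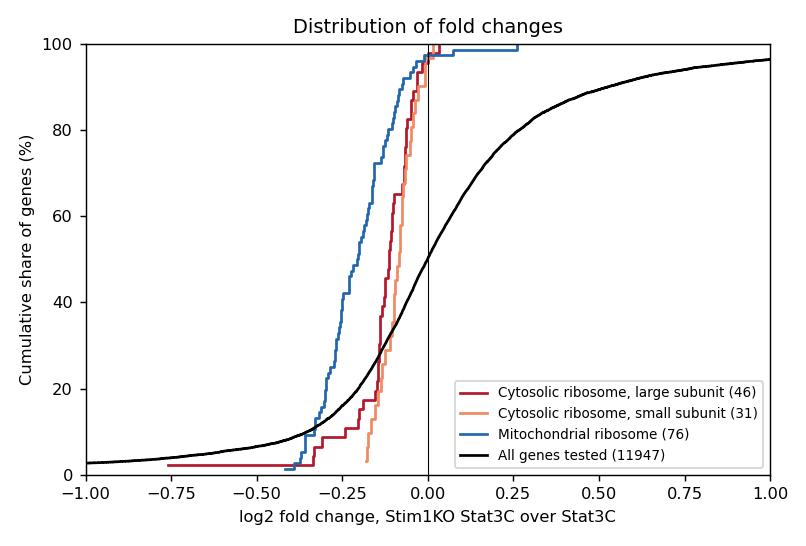
Cumulative share of genes in percent (vertical axis) at or below each log2 fold change (Stim1KO Stat3C over Stat3C, horizontal axis, cropped at -1 and 1) for the large subunit (46), the small subunit (31), the mitochondrial ribosome (76) and all 11947 genes tested. The cytosolic curves are steep and lie just left of 0 with medians of -0.11 and -0.08, the mitochondrial curve lies further left at -0.20, and the curve of all genes has its middle near 0.

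Markers of cells differed between the groups alongside these values. T cell markers, of which 6 of 7 were found, summed to 52962 to 59669 in Stim1KO Stat3C and to 40530 to 44032 in Stat3C, and 5 of the 6 were higher. CD8 T cell markers (2 of 2 found, both lower) summed to 111 to 159 in Stim1KO Stat3C and 277 to 453 in Stat3C. Beside these calls, 8.62% of all genes tested were higher and 4.96% lower. Of the B cell markers, Cd79a had 0, 9.66 and 2.99 in Stim1KO Stat3C and 39.4, 21.2 and 71.7 in Stat3C, and Ms4a1 was at 0 in every Stim1KO Stat3C library and had 23.4, 8.56 and 24.2 in Stat3C. Myeloid markers (6 of 6 found) summed to 334 to 402 in Stim1KO Stat3C and 133 to 305 in Stat3C, of which Cd68 made up most, while Csf1r and Emr1 were at 0 in every Stim1KO Stat3C library. NK cell markers summed to 4.30 to 13.7 in Stim1KO Stat3C and 8.72 to 18.1 in Stat3C. Erythroid markers summed to 0 to 4.30 in Stim1KO Stat3C and 1.94 to 60.9 in Stat3C, with Hba-a1, Hba-a2 and Hbb-b1 at 0 throughout and the highest sum in Stat3C replicate 2. The limit that a count of 0 allows, 3 reads, came to 1.30 to 4.11 normalised counts in these libraries. The part of these cells, of depth and of the Th17 markers in the ribosomal protein values was not tested.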

How the data were processed

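Per the labels' protocols, 6 poly(A) libraries were built with a stranded kit from an RNA input of 100 ng. Per the submitters' processing notes, which give no roles, the tools were DESeq2 1.22.2, HTSeq 0.11.1 and TopHat2 2.1.1 with build mm10. The labels and the table do not state the gene models, counting settings or strand. The deposited values are a normalised signal, read here as counts scaled by the authors with 1 size factor for each library: 100% of values were whole multiples of that library's step, to within 0.01. For Stim1KO Stat3C replicate 3 the step is so near 1 that rounding cannot be told from it. Reads were recovered by dividing by the step, and 27 rows with dates for names, at most 0.217% of reads, were left out.

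The values were tested as log2(value + 1) with limma 3.58.1 (R 4.3.3), two-sided and with trended variance, in 11947 genes with a mean of at least 10, with Benjamini-Hochberg adjustment over these genes and a threshold of 0.05. Fold changes on this scale understate those of low genes. Count models (edgeR 4.0.16, DESeq2 1.42.0, voom) were alternatives on the recovered reads, and the steps were tested on simulated data. The members, lists and tests were chosen with earlier results of these data known. Alternatives changed the scaling, the filter, the pseudocount, the variance model or the weights, or left out 1 library. Leaving out Stim1KO Stat3C replicate 3 in edgeR, and a term in limma for whether a library held Xist, were added after the data were seen.

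Genes named are Stim1, members past the threshold, the 5 highest and 5 lowest log2 fold changes and 3 highest and 3 lowest means per subunit, all genes of 5 short lists, a few fixed members, and up to 4 per other list past the threshold or else 2 by mean. Rpl29, Rpl15, Rpl14, Rpl41, Rpl37, Rps20, Rpl26, Rps3a1, Myc, Mrpl33, Xist, Ms4a1, Csf1r, Emr1, Hba-a1, Hba-a2 and Hbb-b1 fall outside it and were named after their values were seen. Positions, transcript lengths and shared 50-base stretches came from GENCODE M21 (GRCm38), and start sequences from RefSeq (GRCm38.p6). Replicates were numbered in accession order. Some genes of the lists are not reported here.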

Additional observations from a re-analysis of the deposited data

How the results depend on the processing

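Members past the threshold (4 lower: 3 large, 1 small) numbered 7 with equal totals (3 small), 8 with equal totals without the members (5 large, 3 small), 0 without the variance trend (0 large, 0 small), 36 with library quality weights (24 large, 12 small), 17 with DESeq2 (11 large, 6 small), 1 in edgeR without Stim1KO Stat3C replicate 3 (1 large, 0 small), and 0 to 11 with 1 library left out (0 to 6 large, 0 to 5 small). Genes called over the whole table (1623) numbered 827 without the trend (603 higher, 224 lower), 3959 with weights (2155 higher, 1804 lower), 922 in edgeR without that library (639 higher, 283 lower), and 617 to 2899 with 1 library left out (477 to 1707 higher, 140 to 1192 lower). DESeq2 called 1004 lower. As shares of all genes tested, lower calls made up 4.96% in the fit reported, 5.5% with equal totals and 5.94% with equal totals without the members. With 1 library left out they ran from 1.17% to 9.98%. They made up 1.87% without the trend, 15.1% with weights, 8.51% with DESeq2 and 2.37% in edgeR without Stim1KO Stat3C replicate 3. The small-subunit median was -0.14 in edgeR without that library and otherwise stayed within the spread between libraries, as did the large-subunit median under every alternative tried. The cause of these shifts was not tested.

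The sign turned in the following genes, none of them past the threshold in the fit reported. Rpl24 was -0.0049 with TMM, -0.0096 with equal totals without the members, -0.025 with median centring, -0.018 with weights, -0.0042 with edgeR, -0.0098 with DESeq2, -0.0029 with voom and -0.059 in edgeR without Stim1KO Stat3C replicate 3. Rpl23 was -0.0047 with weights, Rps15a -0.0099 with median centring and -0.027 in edgeR without that library, and Rps4y2 0.11 with weights. With 1 library left out, log2 fold changes ran from -0.0902 to 0.0044 in Rpl21, -0.079 to 0.0070 in Rpl5, -0.049 to 0.014 in Rpl22, -0.0089 to 0.054 in Rpl23, -0.048 to 0.027 in Rpl24, -0.0503 to 0.027 in Rpsa, -0.058 to 0.046 in Rps4x, -0.019 to 0.085 in Rps15a, -0.31 to 0.093 in Rps27, -0.097 to 0.00073 in Rpl39, -0.77 to 0.25 in Rps4y2, -0.094 to 0.013 in Eef1a1, -0.12 to 0.025 in Gas5 and -0.23 to 0.0064 in 1500012F01Rik. No paired analysis was possible because the labels give no replicate numbers shared between the groups. With a term for Xist, the 4 members and no others were called, among 1816 genes over the whole table (1141 higher, 675 lower).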
